A study of Mus musculus with 15 samples.

Results

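This section describes the small cysteine-rich LIM protein gene Crip1 and 6 related genes, Crip2, Crip3, Csrp1, Csrp2, Pdlim1 and Pdlim7, across 5 mouse mammary cell lines. All probe sets that carried 1 of these names as their single gene symbol were taken, which gave 12 of 45101 probe sets on the array and 7 of 18193 named genes. Crip1 was chosen because its signal was known to be higher in every line passaged in mice, so that difference is given as a description without a test. The other 6 genes were chosen by name as relatives of Crip1, with earlier results of these data known. The choice of these 6 was thus not made blind to the values tested here.

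A LIM domain is a zinc-binding fold, made of cysteine and histidine residues, that binds other proteins rather than DNA. The CRIP proteins (cysteine-rich intestinal proteins) consist of little more than LIM domains. Crip1 is best known from the intestine and from immune cells, and Crip2 from heart and blood vessels. The CSRP proteins join LIM domains to glycine-rich stretches and bind alpha-actinin and zyxin on actin filaments. Csrp2 is known from smooth muscle. Pdlim1 and Pdlim7 belong to the PDZ-LIM family, in which a PDZ domain holds the protein to alpha-actinin or tropomyosin on actin filaments and the LIM domains bring in partners such as kinases. They are LIM proteins but not members of the cysteine-rich protein family in the narrow sense.

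RNA of 15 samples was measured on Affymetrix arrays, 3 for each line. NMuMG is a wild-type, non-tumorigenic mouse mammary gland epithelial line that had not been passaged in mice. E1KD is NMuMG with the RNA-binding protein hnRNP E1, encoded by Pcbp1, silenced, also without selection in mice. M1P came out of a tumour that E1KD cells formed in the mammary fat pad. L1P came from the lungs of mice given E1KD cells in the fat pad, and L2P from the lungs of mice given L1P cells in the same way. Thus all of E1KD, M1P, L1P and L2P carry the silencing, and only M1P, L1P and L2P were selected in mice, which the study names as NOD/SCID, a strain without functional B and T cells that keeps its myeloid cells. A common medium with serum was used for every line before RNA was taken. Each line is 1 line, with no control line that carried an empty silencing vector and no passaged NMuMG among the samples used here.

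Values are log2 signals, so a difference of 1 means a doubling. The targeted gene, Pcbp1, was at 12.68 ± 0.10 (SD, n = 3) in NMuMG and 9.25 ± 0.22 in E1KD, and its line means lay between 8.15 and 9.83 in the passaged lines. Array medians lay between 4.17 and 4.26, and a signal near or below that level cannot be told from no signal here. Arrays of M1P were less alike than those of any other line, with correlations over all probe sets of 0.930 to 0.978, against 0.979 to 0.996 within the other lines. Counts that rest on M1P, and single genes whose call ends, are therefore also given without its arrays 1 and 2, which stood apart in an earlier analysis of these data. That leaves M1P with 1 array, assumed to vary like those of the other lines. The share of all genes passing in that fit was not computed. Counts from it therefore have no share to be set against, and a smaller count may reflect the fewer arrays.

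The 250 bases before the start sites of Crip1 and Crip2 are shown because the 2 genes lie close together on chromosome 12 and were both higher in every passaged line than in E1KD, a difference on which Crip1 was chosen. Both windows are on the plus strand of GRCm38.p6 and come from RefSeq. Capitals mark the GC box, GGGCGG or CCGCCC on the other strand, the core of the sequence bound by Sp1-type factors. The windows are chr12:113151762-113152011 for Crip1 and chr12:113139986-113140235 for the first start of Crip2.
Crip1: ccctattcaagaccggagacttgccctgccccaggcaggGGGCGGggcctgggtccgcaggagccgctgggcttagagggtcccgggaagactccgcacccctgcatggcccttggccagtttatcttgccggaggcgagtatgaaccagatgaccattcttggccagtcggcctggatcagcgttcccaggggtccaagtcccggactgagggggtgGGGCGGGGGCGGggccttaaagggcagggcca
Crip2: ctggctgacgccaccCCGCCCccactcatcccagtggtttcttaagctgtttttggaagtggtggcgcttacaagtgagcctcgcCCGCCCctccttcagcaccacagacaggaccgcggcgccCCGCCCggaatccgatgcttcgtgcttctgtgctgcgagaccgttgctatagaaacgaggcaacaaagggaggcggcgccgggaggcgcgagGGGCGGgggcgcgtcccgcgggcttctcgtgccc

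The Crip1 window held 3 GC boxes and the Crip2 window 4, counted on both strands, and a GC box occurred in 32.7% of all 32851 windows of that length. Neither window held TATAAA on either strand, which occurred in 12.4% of all windows. A CArG box, the element bound by serum response factor that is known from many actin-linked genes, was also in neither, and was in 1.47% of all windows. The Crip1 window held 13 CpG sites at 67.2% GC, and the Crip2 window 26 CpG sites at 66.8% GC, where the median over all windows was 6 CpG sites. The first start of Crip2 lies 11776 bases from that of Crip1. Windows were given for 5 of the 7 genes, and Crip3 and Csrp2 had none. The window of Pdlim1 held 3 GC boxes and 17 CpG sites, and that of Pdlim7 1 and 19. The Csrp1 windows held 0 and 1 GC boxes, with 5 and 9 CpG sites. The second start of Crip2 had 5 GC boxes and 30 CpG sites. None of these windows held TATAAA or a CArG box, so their absence was not particular to Crip1 and Crip2.

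Crip1 signal was low in both unpassaged lines and high in all 3 passaged lines. The 3 NMuMG arrays read 5.52, 5.62 and 5.80, and the E1KD arrays 5.40, 5.06 and 5.48. The M1P arrays read 11.20, 11.00 and 10.77, the L1P arrays 11.71, 11.82 and 11.39, and the L2P arrays 11.85, 11.78 and 11.62. No passaged array came near the unpassaged ones, and the gap held on each of the 9 passaged arrays. Relative to E1KD, Crip1 stood 5.68 log2 units higher in M1P, 6.32 higher in L1P and 6.44 higher in L2P, each with a standard error of 0.16. These are 51.2-fold, 80.1-fold and 86.6-fold differences in signal. They were the values the gene was chosen on, and the 3 comparisons share the E1KD arrays. Among the 18193 genes the difference ranked 2 in M1P, 1 in L1P and 3 in L2P. In bulk RNA of this kind, more cells that make a transcript and more transcript per cell cannot be told apart.

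With silencing alone, Crip1 was not above its NMuMG level. E1KD was 0.33 ± 0.16 log2 units below NMuMG, with no overlap of arrays, and this did not pass the test (limma, adjusted p = 0.248). The E1KD arrays in this comparison are also those the choice of Crip1 used. Set against NMuMG, the passaged lines were 40.6-fold (M1P), 63.6-fold (L1P) and 68.7-fold (L2P) higher, which again uses the arrays the choice rested on.

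The order of the Crip1 levels among the passaged lines was not part of the choice. L1P exceeded M1P by 0.65 ± 0.16, or 1.56-fold (limma, adjusted p = 0.0111), and L2P exceeded M1P by 0.76 ± 0.16, or 1.69-fold (limma, adjusted p = 0.00676). In both cases every lung array lay above every M1P array. Between the lung lines the difference was 0.11 ± 0.16, with overlapping arrays (limma, adjusted p = 1.00). The call between L1P and M1P was lost with array weights (adjusted p = 0.188) and when only those lines entered the model (adjusted p = 0.0953).

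**Figure D1:**
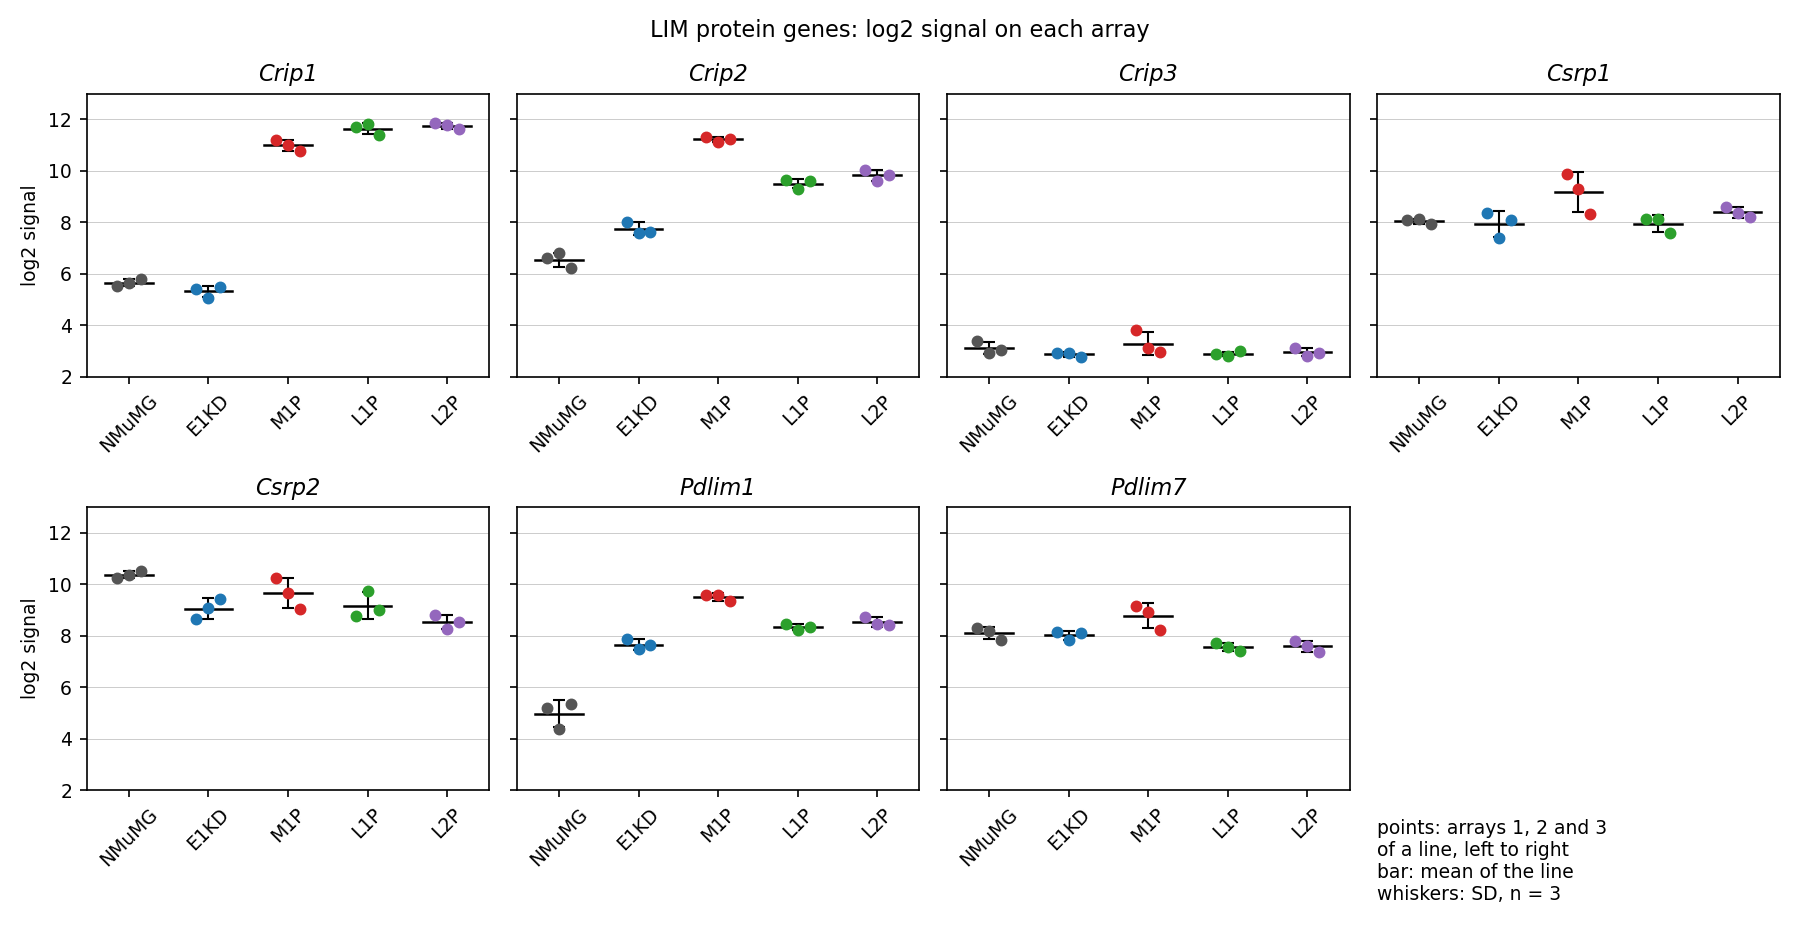
Log2 signal of the 7 LIM protein genes on each of the 15 arrays, by line, with the line mean (bar) and SD (whiskers, n = 3). Crip1 lies between 5.06 and 5.80 in NMuMG and E1KD and between 10.77 and 11.85 in the passaged lines, while Crip2 climbs in steps and is highest in M1P.

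Crip2, a relative of Crip1 and the nearest measured gene before it on chromosome 12, rose at silencing and again in every passaged line. The NMuMG arrays read 6.59, 6.78 and 6.23, and the E1KD arrays 8.02, 7.57 and 7.63. In M1P they read 11.31, 11.11 and 11.22, in L1P 9.62, 9.30 and 9.59, and in L2P 10.03, 9.62 and 9.82. Only the L1P and L2P arrays overlapped with each other. Crip2 was thus lowest in NMuMG and highest in M1P, with the lung lines between E1KD and M1P.

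E1KD exceeded NMuMG by 1.21 ± 0.17, a 2.31-fold difference (limma, adjusted p = 0.000557). Against E1KD, Crip2 rose 11.1-fold in M1P (3.47 ± 0.17, limma, adjusted p = 9.49e-08). The rise was 3.39-fold in L1P (1.76 ± 0.17, limma, adjusted p = 7.00e-05) and 4.23-fold in L2P (2.08 ± 0.17, limma, adjusted p = 9.49e-06). The lung lines stood below M1P, L1P by 3.28-fold (limma, adjusted p = 0.000102) and L2P by 2.63-fold (limma, adjusted p = 0.000302). Among the passaged lines M1P was thus the lowest for Crip1 and the highest for Crip2. L2P and L1P differed by 0.32 ± 0.17, which did not pass (limma, adjusted p = 1.00). The Crip2 calls that involve E1KD, and that between L1P and M1P, each held under all 15 alternative settings tried.

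Crip3, the remaining CRIP gene, gave a dim signal on every array. Its values ran from 2.75 to 3.80, below the array medians of 4.17 to 4.26, and the highest after M1P array 1, at 3.80, was NMuMG array 1, at 3.38. No comparison of Crip3 passed, and the widest difference from E1KD was 0.42 ± 0.19 in M1P (limma, adjusted p = 0.107). Without M1P array 3 that difference became 0.59 and passed (limma, adjusted p = 0.0272), and with M1P array 3 alone it was 0.09.

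Csrp1, an actin-bundling partner of zyxin and alpha-actinin, had its highest mean in M1P. The NMuMG arrays read 8.09, 8.11 and 7.92, the E1KD arrays 8.34, 7.38 and 8.08, the L1P arrays 8.13, 8.12 and 7.56, and the L2P arrays 8.59, 8.37 and 8.19. The M1P arrays read 9.88, 9.28 and 8.33, so that array 1 was the highest of all 15 and array 3 lay among those of E1KD. Csrp1 rose 2.35-fold in M1P relative to E1KD (1.23 ± 0.33, limma, adjusted p = 0.0216) and was 2.34-fold lower in L1P than in M1P (limma, adjusted p = 0.0164). Without M1P arrays 1 and 2 the difference of M1P from E1KD shrank to 0.39 (adjusted p = 0.542), and that of L1P from M1P to -0.39 (adjusted p = 0.492). The former also missed the threshold without M1P array 1 (adjusted p = 0.0812) or E1KD array 2 (adjusted p = 0.0981). The second Csrp1 probe set gave 1.22 ± 0.33 for M1P over E1KD, with the same order of the M1P arrays.

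Csrp2, the smooth-muscle relative of Csrp1, fell at silencing. The NMuMG arrays read 10.26, 10.35 and 10.52, and the E1KD arrays 8.64, 9.08 and 9.45, all below them. The M1P arrays were at 10.24, 9.67 and 9.06, the L1P arrays at 8.76, 9.75 and 9.01, and the L2P arrays at 8.82, 8.27 and 8.55. E1KD was 2.50-fold below NMuMG (-1.32 ± 0.31, limma, adjusted p = 0.0155), L1P 2.30-fold below (limma, adjusted p = 0.0188) and L2P 3.55-fold below (limma, adjusted p = 0.00120). These 3 comparisons share the NMuMG arrays. No passaged line differed from E1KD past the threshold, with differences of 0.60 in M1P, 0.12 in L1P and -0.51 in L2P, each ± 0.31. L2P was 2.16-fold below M1P (-1.11 ± 0.31, limma, adjusted p = 0.0222), which became -0.51 without M1P arrays 1 and 2 and did not pass (adjusted p = 0.445). The call between E1KD and NMuMG was lost without E1KD array 1 (adjusted p = 0.0730), E1KD array 2 (adjusted p = 0.0541) or NMuMG array 3 (adjusted p = 0.0615).

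Pdlim1, a PDZ-LIM protein of actin stress fibres, showed the largest rise at silencing among the 7 genes. On its brightest probe set the NMuMG arrays read 5.21, 4.37 and 5.34, and the E1KD arrays 7.87, 7.47 and 7.64. The M1P arrays read 9.59, 9.60 and 9.33, the L1P arrays 8.45, 8.21 and 8.35, and the L2P arrays 8.74, 8.44 and 8.40. All arrays of the 4 silenced lines lay above all arrays of NMuMG, and all M1P arrays above those of every other line. E1KD exceeded NMuMG 6.45-fold (2.69 ± 0.22, limma, adjusted p = 3.65e-06), and M1P exceeded E1KD 3.59-fold (1.85 ± 0.22, limma, adjusted p = 0.000280). The latter call was lost with array weights (adjusted p = 0.0559), and without M1P arrays 1 and 2 it held at 1.67 (adjusted p = 0.0124).

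In the lung lines Pdlim1 stood less far above E1KD. L2P was 1.82-fold above E1KD (0.87 ± 0.22, limma, adjusted p = 0.0424), while L1P was 0.67 ± 0.22 above and did not pass (limma, adjusted p = 0.173), although none of its arrays overlapped with E1KD. L1P was 2.25-fold below M1P (limma, adjusted p = 0.00322), and L2P 1.97-fold below (limma, adjusted p = 0.00885). Neither passed without M1P arrays 1 and 2 (adjusted p = 0.0723 and 0.143). The call between L2P and E1KD was lost without any 1 of the 6 arrays of these lines (adjusted p from 0.0618 to 0.186). The Pdlim1 rise at silencing was seen on 1 of 3 probe sets. The other 2 stayed between 2.78 and 5.06 on all arrays, around the array medians, and gave -0.37 ± 0.18 and -0.17 ± 0.19 for E1KD against NMuMG, neither of which passed.

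Pdlim7, also called Enigma, another PDZ-LIM protein that binds tropomyosin, gave a different answer by probe set. On the brightest, the NMuMG arrays read 8.30, 8.20 and 7.85, and the E1KD arrays 8.15, 7.82 and 8.10, a difference of -0.10 ± 0.22 (limma, adjusted p = 0.856). On the second, NMuMG read 7.17, 7.72 and 7.11, and E1KD 5.38, 5.46 and 5.67, a 3.55-fold fall (-1.83 ± 0.25, limma, adjusted p = 0.000518 over all named probe sets). On the dimmest of the 3, E1KD and NMuMG differed by less than 0.01. The direction of Pdlim7 at silencing thus has no single value in these data.

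In M1P relative to E1KD, 2 of the 3 Pdlim7 probe sets passed. On the brightest, the M1P arrays read 9.16, 8.94 and 8.23, the L1P arrays 7.70, 7.57 and 7.42, and the L2P arrays 7.81, 7.59 and 7.36. M1P exceeded E1KD 1.69-fold (0.76 ± 0.22, limma, adjusted p = 0.0263), the second probe set gave 1.10 ± 0.25 (adjusted p = 0.0135), and the dimmest 0.20 ± 0.17, which did not pass (adjusted p = 0.364). L1P was 2.32-fold below M1P (limma, adjusted p = 0.00271) and L2P 2.28-fold below (limma, adjusted p = 0.00348), with no overlap of arrays in either case. These became -0.67 and -0.64 without M1P arrays 1 and 2 and did not pass (adjusted p = 0.0883 and 0.105). The excess of M1P over E1KD was 0.21 without M1P arrays 1 and 2 (adjusted p = 0.655), and was lost without any 1 of M1P array 1, M1P array 2, E1KD array 2 and E1KD array 3 (adjusted p from 0.0562 to 0.104).

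**Figure D2:**
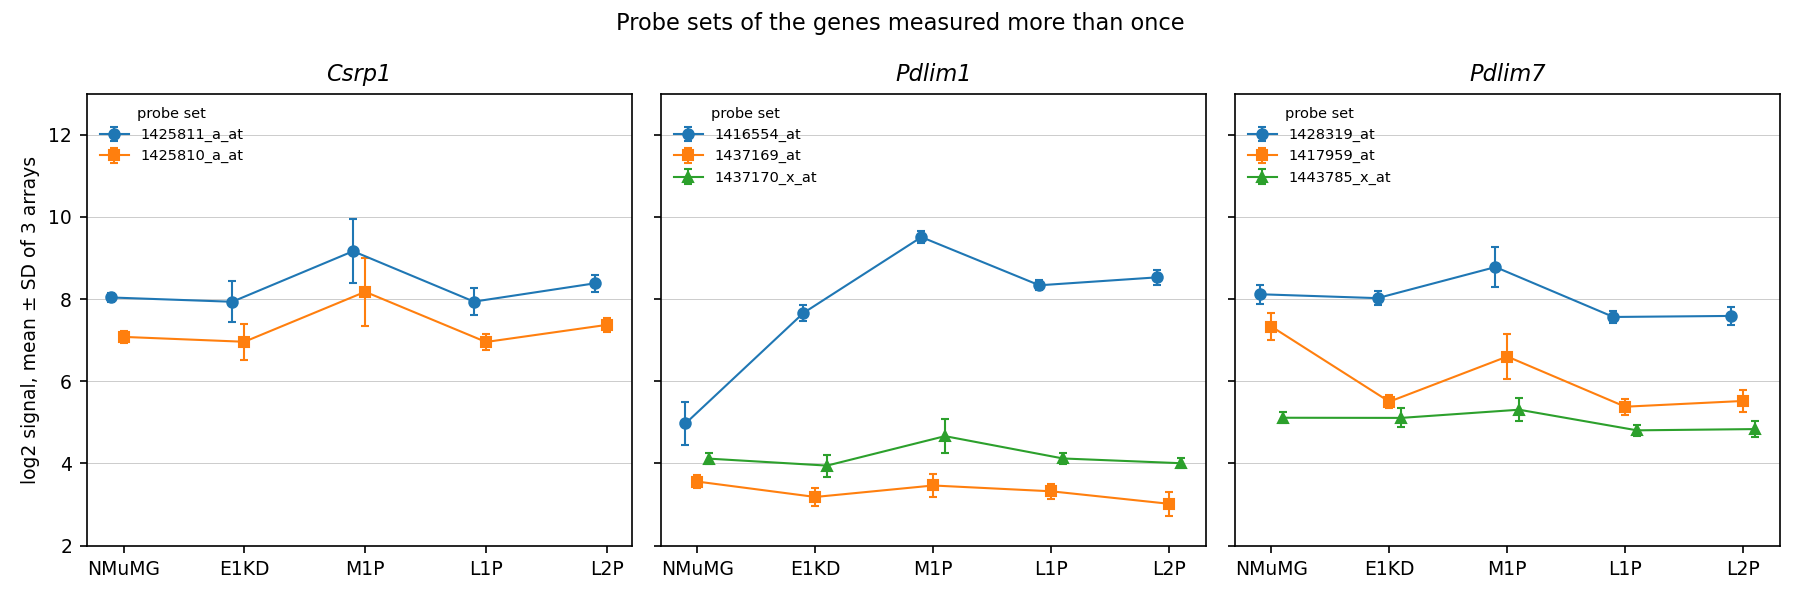
Line means ± SD (n = 3) of log2 signal for each probe set of Csrp1, Pdlim1 and Pdlim7, the members measured by more than 1 probe set. The 2 Csrp1 probe sets run in parallel, 1 of 3 Pdlim1 probe sets carries the rise from 4.97 in NMuMG to 9.51 in M1P, and the second Pdlim7 probe set falls from NMuMG to E1KD where the brightest does not.

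Counted together, 2 of the 7 genes rose (Crip2, Pdlim1) and 1 fell (Csrp2) in E1KD relative to NMuMG, where 9.49% of all genes passed in either direction. The median difference of the 7 was -0.10, beside -0.07 for all genes. In M1P relative to E1KD, 5 of 7 were higher and none lower, where 27.6% of all genes passed and 17.7% were higher. That count includes Crip1, for which it is a description, and 4 of the other 6 (Crip2, Csrp1, Pdlim1, Pdlim7). The median of the 7 was 1.23 and that of all genes 0.20, which became 0.39 and 0.07 without M1P arrays 1 and 2. Without M1P arrays 1 and 2 the count was 3 of 7, Crip1, Crip2 and Pdlim1.

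In L1P relative to E1KD, 2 of 7 were higher, Crip1 and Crip2, where 2.48% of all genes passed and 1.19% were higher. L2P relative to E1KD gave 3 of 7, Crip1, Crip2 and Pdlim1, where 3.78% of all genes passed and 2.14% were higher. Both counts include Crip1, which was chosen on these differences. Of the other 6 genes, 1 was higher in L1P and 2 in L2P. None of the 7 was lower in either lung line. Medians of the 7, Crip1 included, were 0.12 in L1P and 0.45 in L2P, beside -0.03 and -0.00461 for all genes. With array weights the counts were 4 in L1P, where Pdlim1 rose and Pdlim7 fell in addition, and 5 in L2P, where Csrp2 and Pdlim7 fell in addition. The share of all genes passing with array weights was not computed, so these 2 counts have no share to be set against.

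L1P differed from M1P in 5 of 7 genes, Crip1 higher and Crip2, Csrp1, Pdlim1 and Pdlim7 lower, where 39.5% of all genes passed. The median was -1.17, and that of all genes -0.25, which became -0.39 and -0.10 without M1P arrays 1 and 2. Without M1P arrays 1 and 2 the count was 2, Crip1 higher and Crip2 lower. L2P compared with M1P also gave 1 higher and 4 lower, Crip1 against Crip2, Csrp2, Pdlim1 and Pdlim7, where 30.4% of all genes passed. That became 1 higher (Crip1) and 1 lower (Crip2) without M1P arrays 1 and 2, an omission chosen for this pair after seeing the data. No member passed between L2P and L1P (limma), where 0.143% of all genes did, and none had an unadjusted p under 0.05.

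Relative to NMuMG, 4 genes were higher in M1P (Crip1, Crip2, Csrp1, Pdlim1), where 11.8% of all genes passed and 7.28% were higher. When M1P arrays 1 and 2 were left out, again chosen after seeing the data, Csrp1 no longer passed (0.29, adjusted p = 0.701) and Csrp2 was lower (-1.32, adjusted p = 0.0432), which gave 3 higher and 1 lower. After quantile normalization 3 were higher and 0 lower. In L1P and in L2P, 3 were higher (Crip1, Crip2, Pdlim1) and 1 lower (Csrp2), where 14.8% and 14.2% of all genes passed. These counts include Crip1, whose choice used the arrays of the passaged lines. Of the other 6 genes, with every array, 3 were higher in M1P, 2 in L1P and 2 in L2P. For Crip2 the excess over NMuMG reached 25.6-fold in M1P, 7.82-fold in L1P and 9.76-fold in L2P. For Pdlim1 it was 23.2-fold, 10.3-fold and 11.8-fold. These comparisons share their arrays with those against E1KD.

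**Figure D3:**
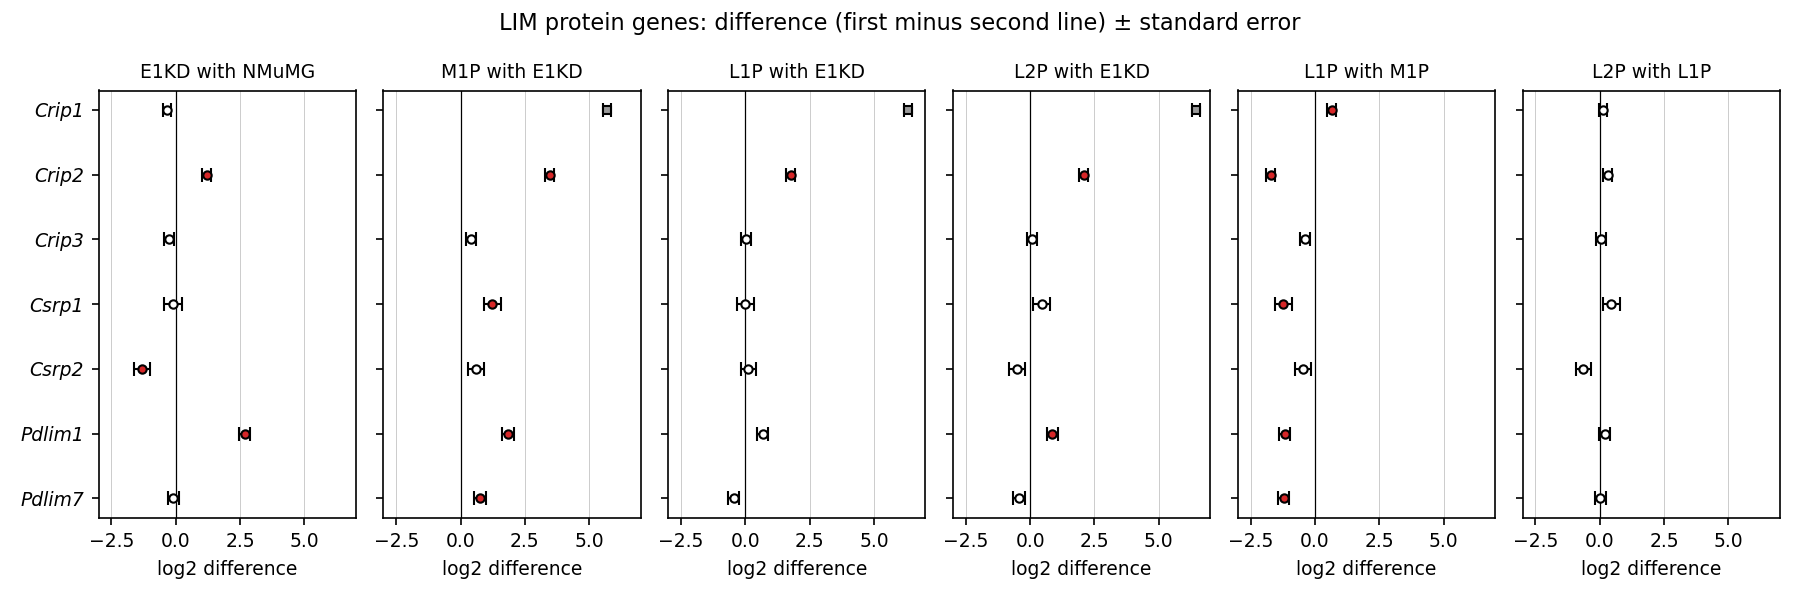
Log2 difference ± standard error of each gene in the 6 main comparisons, first line minus second line. Red circles passed an adjusted p of 0.05, open circles did not, and grey squares are the Crip1 values of 5.68, 6.32 and 6.44 that chose the gene and carry no test.

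On chromosome 12 the nearest measured genes to Crip1 are Crip2 and Tedc1. An annotated gene that was not measured lies between Crip2 and Crip1. The genes around Crip1 were compared to see how far the higher signal in the passaged lines reached. Of the 5 measured genes on either side, Crip2 was the only one that passed in L1P or L2P relative to E1KD. In M1P, Btbd6, which encodes a BTB-domain protein, also rose by 1.04 ± 0.20 (limma, adjusted p = 0.00517), and so did the dim immunoglobulin heavy chain gene Igha, by 0.39 ± 0.13 (limma, adjusted p = 0.0426). Neither passed without M1P arrays 1 and 2, chosen here after seeing the data, with Btbd6 at 0.69 (adjusted p = 0.0997) and Igha at 0.40 (adjusted p = 0.186). Tedc1, next to Crip1 on the far side from Crip2, differed from E1KD by 0.45 ± 0.16 in M1P, -0.31 ± 0.16 in L1P and -0.09 ± 0.16 in L2P, none of which passed. Mta1, a chromatin remodelling subunit that lies beyond Crip2 as seen from Crip1, gave 0.45 ± 0.30, -0.11 ± 0.30 and 0.00524 ± 0.30. The remaining measured neighbours, Pacs2, Tex22, Tmem121, Ighg3 and Ighm, lay between -0.35 and 0.35 and did not pass.

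**Figure D4:**
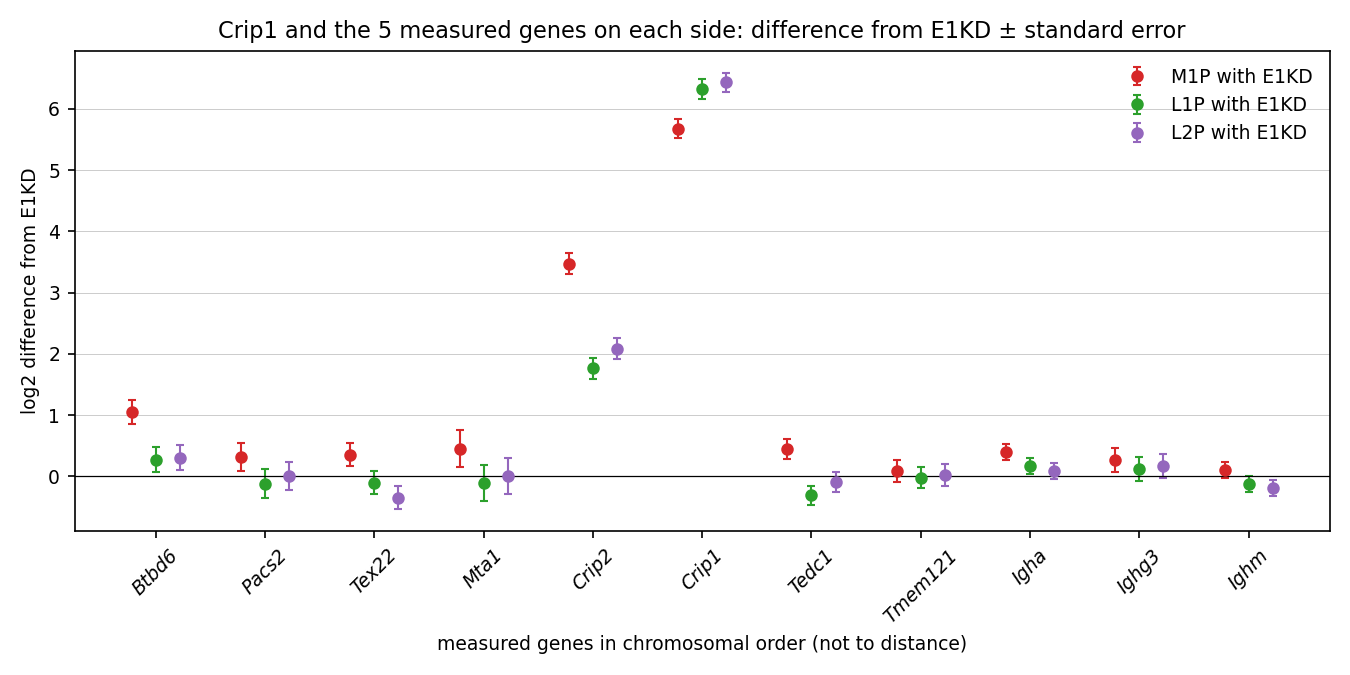
Log2 difference from E1KD ± standard error for Crip1 and the 5 measured genes on each side of it, in chromosomal order, for M1P, L1P and L2P. Crip1, at 5.68 to 6.44, and Crip2, at 1.76 to 3.47, stand above the other genes, of which the highest is Btbd6 at 1.04 in M1P.

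The genes whose signal followed Crip1 most closely were sought among the 1077 genes with an SD of at least 1 over the 15 arrays. Correlations are over 15 arrays in 5 lines, so they mainly restate the line means, and no test is attached. Mapk12, the stress-activated kinase p38 gamma, came first (r = 0.985), with line means of 3.41 and 3.37 in NMuMG and E1KD and of 7.97, 7.88 and 7.66 in M1P, L1P and L2P. Then came Ly9, a surface receptor of lymphocytes (r = 0.960), Sncg, gamma-synuclein (r = 0.959), the interferon-inducible GTPase Ifi47 (r = 0.940) and Tecpr1, an autophagy protein (r = 0.932). Sncg went from a mean of 4.04 in E1KD to 6.84 in M1P, 7.98 in L1P and 8.71 in L2P.

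At the other end, Thbs1, the matrix protein thrombospondin, ran most nearly opposite to Crip1 (r = -0.977), with means of 6.32 and 6.71 in NMuMG and E1KD and of 4.20, 3.87 and 3.83 in M1P, L1P and L2P. Klhl13, an adaptor of a ubiquitin ligase, followed (r = -0.972). It was at 9.17 in NMuMG, 7.74 in E1KD and between 2.34 and 2.52 in the passaged lines. Xist, the RNA of X-chromosome inactivation (r = -0.966), was at 8.00 in NMuMG, 10.00 in E1KD and between 3.93 and 4.46 in the passaged lines. Tiam1, an activator of the GTPase Rac (r = -0.965), and Mbnl3, a splicing regulator (r = -0.961), completed the list. Among the other LIM genes of this section, Crip2 had r = 0.859 with Crip1, Pdlim1 0.739, Csrp1 0.394 and Csrp2 -0.410.

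**Figure D5:**
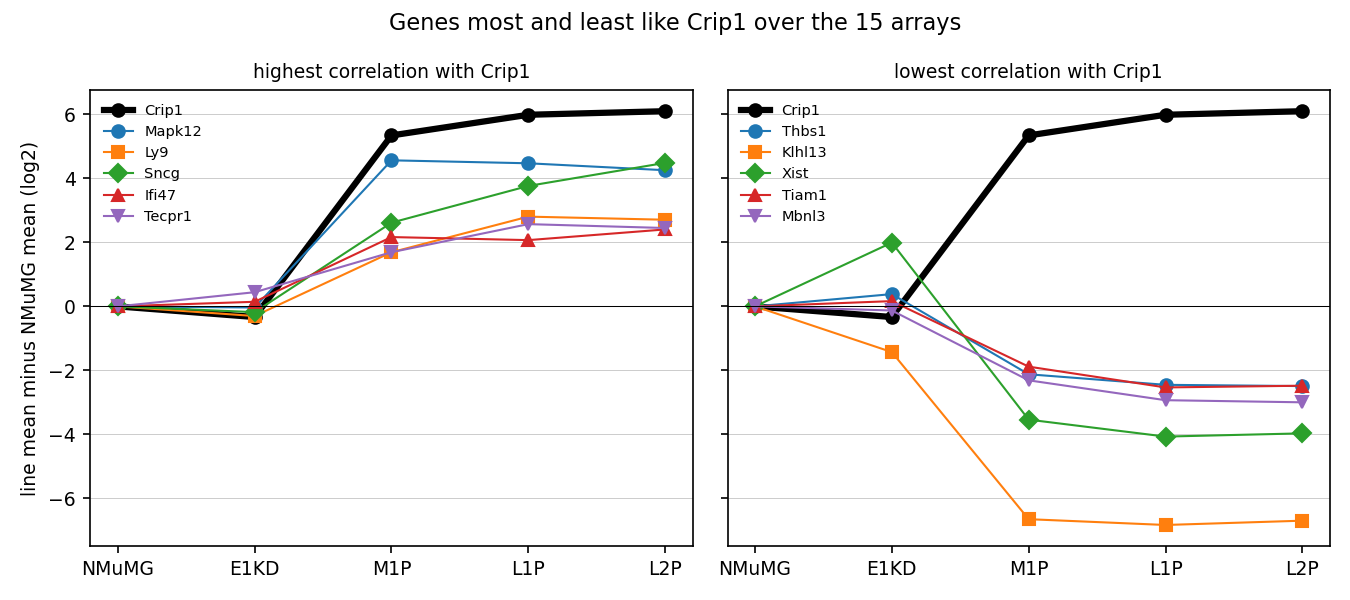
Line means of log2 signal minus the NMuMG mean for Crip1 (thick black) and, on the left, the 5 genes with the highest correlation with it over 15 arrays (0.932 to 0.985), on the right the 5 with the lowest (-0.961 to -0.977). All change chiefly between E1KD and the passaged lines, while Xist is also higher, and Klhl13 also lower, in E1KD than in NMuMG.

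Other genes with LIM domains were counted to see whether the class moved as a whole, and 46 of 49 listed were measured. In E1KD relative to NMuMG, 4 of 46 rose and 4 fell, which is 17.4% of the list beside 9.49% of all genes. The largest rises were those of the zyxin relatives Trip6 (2.01 ± 0.26) and Lpp (1.93 ± 0.44) and of the planar polarity gene Prickle1 (1.72 ± 0.27). The largest falls were those of Lmcd1 (-1.34 ± 0.27), Pdlim2 (-1.14 ± 0.31), a PDZ-LIM relative of Pdlim1, and the transcription cofactor Lmo4 (-1.14 ± 0.21). The median of the list was -0.07, the same as that of all genes. With M1P arrays 1 and 2 left out of the model, more of the list passed at silencing and in L1P and L2P relative to E1KD. The share of all genes passing in that fit was not computed.

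Relative to E1KD, 11 of the 46 rose and 5 fell in M1P, which is 34.8% beside 27.6% of all genes, with a median of 0.20, again that of all genes. Fhl1 (1.62 ± 0.38), Pdlim2 (1.53 ± 0.31) and Wtip (1.42 ± 0.24) rose most. Lims1, the integrin adaptor PINCH (-2.29 ± 0.62), Lpp (-2.27 ± 0.44) and Pdlim5 (-1.86 ± 0.50) fell most. Without M1P arrays 1 and 2, none of the 46 rose and 2 fell.

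In the lung lines 4 of the 46 passed in L1P and 3 in L2P, which is 8.70% and 6.52% beside 2.48% and 3.78% of all genes. In L1P, Pdlim2 rose by 1.62 ± 0.31, while Lmcd1 (-2.43 ± 0.27), Prickle1 (-1.94 ± 0.27) and Trip6 (-1.33 ± 0.26) fell. In L2P, Pdlim2 rose by 1.43 ± 0.31, while Lmcd1 (-2.86 ± 0.27) and Prickle1 (-2.03 ± 0.27) fell. Pdlim2 was thus lower in E1KD than in NMuMG and in both lung lines, and Prickle1 was higher. These comparisons share the E1KD arrays, and Pdlim2 was also higher in M1P than in E1KD. List medians were -0.11 in L1P and -0.06 in L2P. No gene of the list passed between L2P and L1P. In L1P relative to M1P 4 were higher and 16 lower, which is 43.5% of the list beside 39.5% of all genes. Over all genes 13.6% were higher and 25.9% lower in that pair. Without M1P arrays 1 and 2 the list median there went from -0.29 to -0.15, and that of all genes from -0.25 to -0.10.

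Of 28 listed genes for proteins that LIM proteins bind on actin filaments, 27 were measured. At silencing 11.1% of them passed, in M1P relative to E1KD 22.2%, and in L1P and L2P 3.70% each, beside 9.49%, 27.6%, 2.48% and 3.78% of all genes. Flnc, the actin cross-linker filamin C, rose at silencing (2.54 ± 0.26, limma, adjusted p = 3.98e-05). It fell from E1KD to L1P (-2.67 ± 0.26, limma, adjusted p = 7.23e-05) and to L2P (-2.71 ± 0.26, limma, adjusted p = 4.24e-05), where it was the only one of the 27 to pass. The Flnc comparisons share the E1KD arrays. Vinculin (Vcl, 0.97 ± 0.26) and tropomyosin 1 (Tpm1, 0.46 ± 0.11) also rose at silencing, and none fell. In M1P relative to E1KD, 3 rose (Ilk, Actn4, Tpm2) and 3 fell (Enah, Vcl, Tpm1), and 1 rose and 2 fell without M1P arrays 1 and 2.

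Serum response factor, its MRTF cofactors and their actin-linked targets, 24 genes all measured, are known to control many genes of the actin cytoskeleton. At silencing 1 of 24 rose (Mrtfb, 0.89 ± 0.24) and 2 fell (Fos, -1.90 ± 0.22, and Mylk, -1.19 ± 0.27). From E1KD to M1P, 3 rose, Egr1 (2.13 ± 0.67), Acta2 (1.37 ± 0.19) and Lmod1 (0.87 ± 0.25), and Mrtfb fell (-1.02 ± 0.24). The counts were 1 and 2 without M1P arrays 1 and 2. As shares of the list, 12.5% passed at silencing, 16.7% in M1P, 4.17% in L1P and 12.5% in L2P, beside 9.49%, 27.6%, 2.48% and 3.78% of all genes. Ccn2, a secreted matrix-associated protein, fell in L1P (-1.74 ± 0.38) and in L2P (-1.76 ± 0.38). In L2P, Mylk (1.16 ± 0.27) and Acta2 (0.78 ± 0.19) rose. The list medians were -0.04 at silencing, 0.19 in M1P, -0.13 in L1P and -0.16 in L2P, beside -0.07, 0.20, -0.03 and -0.00461 for all genes.

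Crip1 and Crip2 are also made by other cell types, so markers of those types were read on the same arrays. The epithelial keratin Krt8 was between 13.79 and 14.17 and Cdh1 between 10.47 and 11.17 in all lines, and Krt19 between 12.60 and 13.28. Krt7, another epithelial keratin, went from a mean of 10.27 in NMuMG to 4.81 in E1KD and 4.17 to 4.65 in the passaged lines. Epcam was at 5.03 to 5.57 and Cldn3 at 4.94 to 5.39, while Cldn4 (3.45 to 3.73) and Cldn7 (3.16 to 3.44) lay below the array medians in every line. Ptprc, the defining leukocyte marker, was at 2.46 to 2.63, the endothelial marker Pecam1 at 2.80 to 2.98 and the fibroblast marker Col1a1 at 3.36 to 3.65, all below the array medians, in passaged and unpassaged lines alike. Over the 10 leukocyte genes, 4 or 5 were above the array median in each line, and their summed linear signal was 1142 to 1519 in E1KD and 1490 to 2450, 847 to 1320 and 942 to 1548 in M1P, L1P and L2P, with Cd14 the highest. Of the 10, all 10 had higher means in M1P than in E1KD, but only 4 did in L1P and 4 in L2P. The macrophage genes Cd68 and Lyz2 had higher means in each passaged line than in E1KD. Csf1r went the other way in the lung lines, from 5.04 in E1KD to 4.78 in L1P and 4.83 in L2P. So did Cd14, from 10.22 to 9.74 and 9.84. Neither Cd68 nor Lyz2 passed against E1KD with every array in the model. With M1P arrays 1 and 2 left out of the model, some leukocyte genes did rise in L1P and in L2P relative to E1KD. The share of all genes passing in that fit was not computed. In L2P relative to NMuMG, with every array, 1 of the 10 leukocyte genes rose and 1 fell. Over all genes 5.56% were higher and 8.68% lower in that pair. Cd68 went from a mean of 5.01 in E1KD to 5.37 in M1P, 5.65 in L1P and 6.18 in L2P, and Lyz2 from 4.19 to 4.53, 5.03 and 5.20. In the same order of lines, the 8 muscle genes summed to 157 to 176, 185 to 244, 153 to 175 and 151 to 189. The 7 endothelial genes summed to 70.4 to 86.7, 84.0 to 94.1, 67.6 to 79.6 and 67.5 to 83.5, and the 9 fibroblast genes to 94.5 to 102, 111 to 218, 93.7 to 96.1 and 99.2 to 109. The fibroblast gene Col1a2 went from 4.10 in E1KD to 5.18 in M1P (1.09 ± 0.37, limma, adjusted p = 0.0464) and Pdgfrb from 4.02 to 4.49, so that 2 of 9 were above the array median in M1P and 0 in E1KD, with 0 in L1P, 1 in L2P and 2 in NMuMG. The endothelial gene Kdr, at 4.29 to 4.86, was above it in every line and higher in M1P than in E1KD (0.57 ± 0.18, limma, adjusted p = 0.0382). In M1P relative to E1KD, where 17.7% of all genes were higher, 1 marker rose in each of the 5 lists. Beside Col1a2 and Kdr these were Krt19 (0.68), Cd52 (0.60) and Acta1 (0.50). These calls did not hold without M1P arrays 1 and 2. List medians then went from 0.26 to 0.10 (epithelium), 0.32 to 0.30 (fibroblast) and 0.33 to 0.16 (leukocyte). Those of endothelium and muscle went from 0.08 to 0.10 and from 0.29 to 0.21. After quantile normalization 2 epithelial, 0 fibroblast, 2 leukocyte, 1 endothelial and 1 muscle marker rose in M1P, and the share of all genes was not computed there. In L1P and L2P relative to E1KD, with every array in the model, 0 markers passed, where 2.48% and 3.78% of all genes did. The part of these markers in the Crip1 difference, and in those of the other members, was not tested.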

How the data were processed

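Biotin-labelled RNA of 15 samples was measured on Affymetrix 3' arrays, 3 for each of 5 lines. The authors deposited log2 signals, made with RMA, MAS5 and the Affymetrix Expression Console per the submitters' processing notes; versions not given in the sources used here. Those log2 values were used unchanged. Detection calls were not used. Probe sets were named through the platform table and RefSeq (GRCm38.p6), and for each of 18193 genes the probe set of highest mean was kept. All 15 arrays entered a linear model with a mean for each line (limma 3.58.1, R 4.3.3) and 10 pairs of lines were compared by moderated two-sided tests, adjusted by Benjamini-Hochberg over all genes at a threshold of 0.05. "Rose" and "fell" mean past that threshold. Nothing in the labels says that the 3 arrays of a line are separate cultures, so p-values measure a spread that may be technical. The number of arrays limits the precision, and shares of genes passing are over all 18193 genes.

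Named genes are the 7 members, Pcbp1, 5 measured genes on each side of Crip1, the 5 most and 5 least correlated genes, and up to 3 rises and 3 falls per list and comparison. The 7 genes and all lists were chosen with earlier results of these data known. Alternatives were the replicate block, quantile normalization, a filter on dim genes, other probe set rules, array weights, models of 2 lines, a trended robust prior, omission of each array, and omission of M1P arrays 1 and 2; omission of the M1P line was chosen after seeing the data. The fit was tested on simulated data.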

Additional observations from a re-analysis of the deposited data

How the results depend on the processing

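Same-numbered arrays of different lines did not all deviate together (30 pairs, correlations of -0.50 to 0.75, median 0.11, 16 over 0.1; 60 pairs of other numbers had a median of -0.08, 24 over 0.1). Of the arrays, 8 of 15 arrays correlated best with their own number, a hint from the data and not the design, and the numbers were not taken as pairs. With the replicate block the counts of members called were those found without it, namely 3 at silencing, then 5, 2 and 3 for M1P, L1P and L2P against E1KD, 5 between L1P and M1P and 0 between L2P and L1P. Of the counts of members called, M1P with E1KD (5) became 2 with array weights, 3 with only the 2 lines in the model and 3 without M1P arrays 1 and 2, and ranged from 3 to 7 over single arrays left out. L1P with M1P (5) became 1, 2 and 2 under the same settings and ranged from 4 to 7. With array weights, L1P with E1KD (2) became 4 and L2P with E1KD (3) became 5; leaving out single arrays gave 2 in each case. Leaving out single arrays gave 2 to 3 for E1KD with NMuMG and 0 for L2P with L1P. The number of calls over all member probe sets was 18 to 29 over single arrays left out (25 with every array) and 31 with array weights. Over the other pairs of lines the number of calls was 15 to 22 (17 with every array). The estimation of array weights stopped before convergence and gave M1P array 2 a weight of 0.00493, and why the calls moved under it was not tested. The share of all genes passing with array weights was not computed.

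Single differences kept their direction and side of the threshold in 553 values, gained a call in 11, lost one in 37 and changed sign in 23. None of the changes of sign was in a difference that had passed; the widest were Csrp2 between L1P and M1P (-0.48) and Pdlim7 between L2P and E1KD (-0.43). Over single arrays left out, the difference between L2P and L1P ran from -0.012 to 0.20 for Crip1, from -0.022 to 0.13 for Crip3 and from -0.085 to 0.14 for Pdlim7. That between L1P and E1KD ran from -0.034 to 0.065 for Crip3, from -0.27 to 0.21 for Csrp1 and from -0.16 to 0.33 for Csrp2. That between L2P and E1KD ran from -0.0011 to 0.15 for Crip3, and that between E1KD and NMuMG from -0.31 to 0.17 for Csrp1 and from -0.23 to 0.0058 for Pdlim7. With array weights, L2P minus L1P was -0.014 for Crip3 and -0.079 for Pdlim7, and L1P minus E1KD was -0.041 for Csrp1 and -0.11 for Csrp2. The latter difference of Csrp1 was -0.040 after quantile normalization and -0.00089 as the mean of its probe sets. As the mean of its probe sets Pdlim1 gave -0.075 for L2P minus L1P, and on its most variable probe set Pdlim7 gave 0.017 for L2P minus E1KD. Without M1P arrays 1 and 2, Csrp2 gave 0.12 for L1P minus M1P. Their cause was not tested. Crip3, near the floor, gave no value under the filter on dim genes. Without the M1P line, an omission chosen after seeing the data, the count of members called did not change for E1KD with NMuMG. Nor did it for L1P with E1KD, L2P with E1KD or L2P with L1P. No count under that omission is given for L1P with NMuMG or L2P with NMuMG. The counts of those pairs did change without M1P arrays 1 and 2.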
